A study of Mus musculus with 6 samples.

Results

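The genes described here are 7 genes of fatty acid burning in muscle: Cpt1b, Acadl, Acadm, Hadh and Ucp3, called the oxidation genes below, and the nuclear receptors Ppara and Pparg, called the regulators. They were taken as the probes that the array's annotation assigns to these symbols, 1 probe for each gene, and they make up 7 of the 203 genes named on the array. All 6 samples are control C57Bl/6 mice, from which soleus muscle was cut into cryosections for total RNA, with 3 µg used per array. The labels give no age or treatment, they do not explain the letters HUR and wt in the titles, and whether the 6 arrays came from 6 different mice is not stated, so p-values over arrays measure a spread that may be partly technical.

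Mitochondria break fatty acids down by beta-oxidation, a cycle of reactions that shortens the acyl chain and feeds the citric acid cycle and the respiratory chain. Long chains enter through the carnitine shuttle, and acyl-CoA dehydrogenases of different chain-length preference start each round. The PPAR receptors are bound by fatty acids and, paired with a retinoid X receptor, switch on genes of lipid use. PPARα is known for driving oxidation in muscle, heart and liver, and PPARγ for driving adipocyte formation. The soleus is a slow postural muscle that relies on oxidative metabolism.

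The array held 223 probes, and 152 features (145 named genes and 7 unnamed probes) had an intensity above 0 on all 6 arrays. The deposited intensities were not on a common scale, with array medians that differed 4.15-fold and sums from 31.05 to 125.2, the highest in control 4. A level below is thus the log2 of an intensity over its array's median across the 152 features, and it carries the affinity of its probe, so levels of different genes are not ranked. The most negative intensity on each array served as its noise bound. From 109 probes in control 2 to 166 in control 6 exceeded it. All 7 muscle fibre markers on the array were above their bounds on every array, among them the slow myosin Myh7 and myoglobin, Mb.

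All 5 oxidation genes gave a clear signal in every sample, while the regulators were dimmer and Pparg was below the noise bound on 2 arrays. In all, 6 of the 7 genes were above the bound on all 6 arrays, against 47.5% of all probes. The oxidation genes lay between 6.23 times the bound, for Cpt1b in control 2, and 99.6 times, for Hadh in control 6. Each of the 5 was highest in control 2 and lowest in control 5, where 27% of all 152 features were highest and 38.2% lowest. This order appeared only after scaling, since all 7 genes had their highest deposited intensity in control 4, the brightest array.

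Cpt1b encodes the muscle form of carnitine palmitoyltransferase 1, which loads long-chain fatty acids onto carnitine at the outer mitochondrial membrane and is the main control point of their entry. Its levels in controls 1 to 6 were 0.97, 1.43, 1.10, 1.03, 0.89 and 1.19, a mean of 1.10 ± 0.19 (SD, n = 6). The highest array was 1.46-fold above the lowest, the narrowest range of the 7 genes.

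Acadl encodes the long-chain acyl-CoA dehydrogenase and Acadm the medium-chain enzyme, which catalyse the opening step of each round of beta-oxidation. Acadl had levels of 2.54, 2.75, 1.85, 2.16, 1.18 and 1.53, a mean of 2.00 ± 0.60 and a 2.96-fold range. Acadm had levels of 0.97, 2.00, 1.18, 1.04, 0.34 and 0.98, a mean of 1.08 ± 0.53 and a 3.16-fold range. The pair parted in control 1, which was the next highest array for Acadl and the next lowest for Acadm, there nearly tied with control 6.

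Hadh encodes the mitochondrial 3-hydroxyacyl-CoA dehydrogenase of shorter chains, a later step of the cycle. Its levels were 3.18, 4.15, 3.72, 3.53, 2.86 and 3.48, a mean of 3.49 ± 0.44 with a 2.43-fold range. Ucp3 encodes uncoupling protein 3, a carrier of the inner mitochondrial membrane found mostly in muscle, whose amount goes with fatty acid supply. Its levels were 1.40, 1.54, 0.73, 1.05, 0.42 and 0.55, a mean of 0.95 ± 0.46 with a 2.17-fold range. Control 1 was next to the lowest for Hadh, as for Acadm, and next to the highest for Ucp3, as for Acadl.

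Ppara had levels of 0.09, -0.28, 0.18, 0.44, -0.11 and 0.17 in controls 1 to 6, a mean of 0.08 ± 0.25 with a 1.64-fold range. It was highest in control 4 and lowest in control 2, where it reached 1.9 times the noise bound, against 5.03 to 10.1 times elsewhere. Pparg had levels of -2.63, -3.46, -1.57, -1.29, -1.27 and -1.93, a mean of -2.03 ± 0.86. Its values in controls 1 and 2, at 0.765 and 0.21 times the bound, have no reliable size. With values raised to the bound, the levels of Pparg were -2.24, -1.21, -1.57, -1.29, -1.27 and -1.93. Control 2 then moved from the lowest array to the highest, and the range shrank from 4.55-fold to 2.05-fold. The bound of control 2, at -1.21, lay above every measured level of Pparg, so this step alone placed that array highest. Without that step both regulators had their lowest level in control 2, where 23.7% of all features had theirs.

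**Figure D1:**
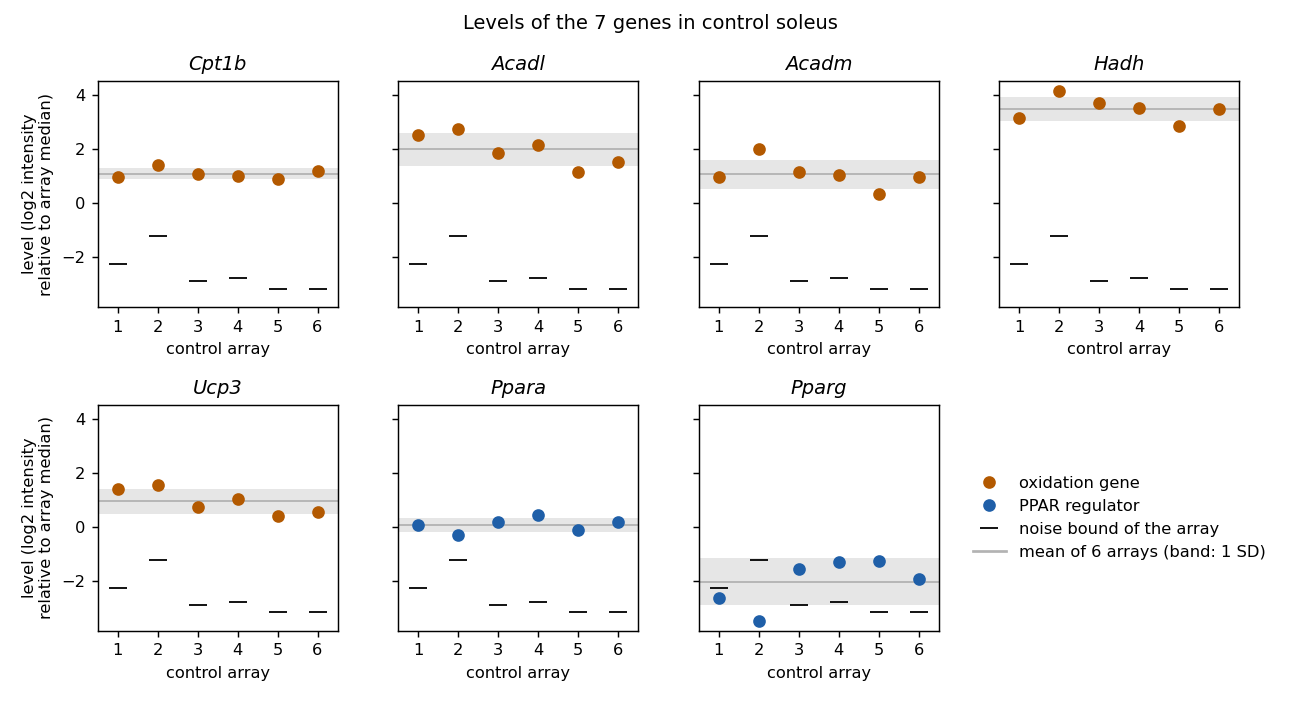
Levels (log2 of intensity over array median, vertical axis) of the 7 genes on the 6 control arrays (horizontal axis). Points are single arrays, the line and band are the mean and 1 SD of the 6, and dashes are the noise bound of each array. The 5 oxidation genes peak in control 2 and are lowest in control 5, and Pparg lies below the bound in controls 1 and 2.

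None of the 7 genes passed the test for varying more than features of like intensity. In limma's one-sided F test against the intensity-trended prior, their adjusted p-values over the 152 features ran from 0.921 to 0.996, with 0 of 7 below the threshold of 0.05, against 1.32% of all features. The lowest unadjusted p among the 7 was 0.317, for Acadl, and 5.92% of all features had an unadjusted p under 0.05. The SDs of Cpt1b, 0.19, and of Ppara, 0.25, compare with prior SDs of 0.47 and 0.44 at their intensities. Among all features, 3.29% had a smaller SD than Cpt1b and 6.58% a smaller SD than Ppara.

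The oxidation genes were positively related to each other over the arrays, and within them 2 pairs had the same order of samples. All 10 pairs had a Pearson's r above 0, with a median of 0.764 and a range of 0.476 for Cpt1b and Ucp3 to 0.988 for Acadl and Ucp3. Over all 11476 pairs of features the median r was 0.064, with quartiles of -0.479 and 0.565, and 52.7% were above 0. Acadl and Ucp3 shared the same order of the 6 arrays, highest to lowest 2, 1, 4, 3, 6 and 5. Acadm and Hadh shared another, 2, 3, 4, 6, 1 and 5, although controls 6 and 1 were nearly tied for Acadm, at 0.98 and 0.97. Cpt1b went with the latter pair.

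Each relation was tested against all 720 ways of pairing the arrays, two-sided, with Benjamini-Hochberg adjustment over the 11476 pairs, and 21 of these were among the 7 genes. Acadl and Ucp3 had r = 0.988 (exact permutation p = 0.00278, adjusted p = 0.196). Spearman's rho was 1.000 (exact p = 0.00278, adjusted p = 0.199). An r at least as high was found for 9 of all pairs, this pair included. Acadm and Hadh had r = 0.952 (exact p = 0.00139, the smallest the test can give, adjusted p = 0.192), and their rho was also 1.000 (exact p = 0.00278, adjusted p = 0.199). Cpt1b had r = 0.915 with Acadm (exact p = 0.0125, adjusted p = 0.209) and 0.910 with Hadh (exact p = 0.0139, adjusted p = 0.214), with rho at 0.829 for both (exact p = 0.0583, adjusted p = 0.332). The lowest relation, of Cpt1b and Ucp3 at 0.476, had an exact p of 0.353, and its rho was 0.429 (exact p = 0.419, adjusted p = 0.741).

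After adjustment 0 of the 21 pairs passed, as did 0% of all pairs. With 6 arrays, 319 pairs at the smallest p would be needed for pairs to pass at that p, and 83 reached it. Passing at a larger p would take still more pairs at or below it, so this count does not speak against a relation. An unadjusted exact p under 0.05 was found for 4 of the 10 pairs of oxidation genes, all with r above 0. Of all pairs, 9.53% had such a p with r above 0 and 16.7% had it in either direction. With rho it was found for 2 of them, against 11.6% of all pairs.

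Most of these relations leaned on 2 arrays. Controls 2 and 5 were the samples farthest from the median for each gene taken as the x axis in these pairs. Without both, r was 0.994 for Acadl and Ucp3, 0.833 for Acadm and Hadh, 0.547 for Cpt1b and Hadh and 0.108 for Cpt1b and Acadm. The other 6 pairs then had r below 0, from -0.229 for Acadl and Acadm to -0.990 for Cpt1b and Acadl, so their relation rests on these arrays. With any 1 array left out, r stayed between 0.985 and 0.997 for Acadl and Ucp3 and between 0.909 and 0.981 for Acadm and Hadh.

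**Figure D2:**
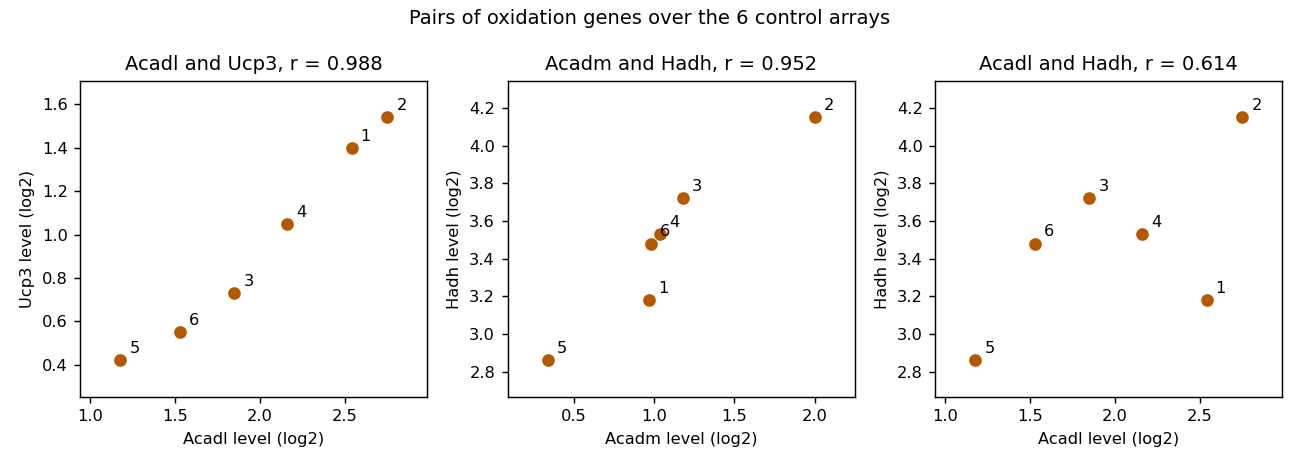
Levels (log2, relative to the array median) of Acadl against Ucp3, Acadm against Hadh and Acadl against Hadh, 1 numbered point per control array. The points of the left and middle panels follow a shared order with r of 0.988 and 0.952, while in the right panel control 1 lies off the others and r is 0.614.

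The ratio of 2 probes on the same array is unchanged by a single scaling factor per array. It describes how evenly 2 genes kept together, but other corrections of the intensities could change it. The ratio of Acadl to Ucp3 intensity was 2.21, 2.31, 2.17, 2.17, 1.69 and 1.98 in controls 1 to 6, a 1.36-fold range with an SD of 0.16 on the log2 scale. The ratio of Hadh to Acadm was 4.62, 4.43, 5.83, 5.62, 5.75 and 5.67, a 1.32-fold range with an SD of 0.18. Smaller SDs were found for 0.497% and 0.854% of all pairs of features, whose median was 0.80. Across these 2 pairs the ratio was less even. Acadl to Hadh was 0.641 in control 1 against 0.259 to 0.388 in the other arrays, the widest, with a 2.47-fold range. Acadm and Ucp3 had a 1.84-fold range, Acadl and Acadm 2.01-fold and Hadh and Ucp3 2.32-fold. The ratio of Cpt1b to Acadm ranged 2.17-fold, no more even than these, and that of Cpt1b to Hadh 1.67-fold. The size of each ratio carries the probes' affinities, and its change over arrays is what these values describe.

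The start regions of these 4 genes are shown because their transcripts formed the 2 closest pairs, and because PPAR receptors bind DNA at repeats of the core AGGTCA. They are the 250 bases before the annotated start, from RefSeq on GRCm38.p6, written 5′ to 3′ on the gene's strand with each AGGTCA, on either strand, in capitals. Acadl lies at chr1:66863310-66863559 on the minus strand, Ucp3 at chr7:100472741-100472990 on the plus strand, Acadm at chr3:153944644-153944893 and Hadh at chr3:131272102-131272351, both on the minus strand.
Acadl: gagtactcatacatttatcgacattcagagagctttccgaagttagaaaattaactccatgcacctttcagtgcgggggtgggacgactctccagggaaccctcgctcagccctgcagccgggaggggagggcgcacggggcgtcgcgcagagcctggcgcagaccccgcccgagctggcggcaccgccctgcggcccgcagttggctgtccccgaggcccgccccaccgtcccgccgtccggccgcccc
Ucp3: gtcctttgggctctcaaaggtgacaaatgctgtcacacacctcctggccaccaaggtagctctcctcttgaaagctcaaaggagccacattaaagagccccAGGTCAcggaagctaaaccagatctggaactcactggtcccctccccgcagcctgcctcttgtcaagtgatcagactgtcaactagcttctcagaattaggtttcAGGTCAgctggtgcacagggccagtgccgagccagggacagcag
Acadm: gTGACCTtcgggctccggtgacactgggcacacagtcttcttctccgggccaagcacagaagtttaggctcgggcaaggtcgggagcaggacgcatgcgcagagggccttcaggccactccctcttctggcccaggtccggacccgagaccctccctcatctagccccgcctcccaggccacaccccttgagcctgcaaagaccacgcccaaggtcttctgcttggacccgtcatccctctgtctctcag
Hadh: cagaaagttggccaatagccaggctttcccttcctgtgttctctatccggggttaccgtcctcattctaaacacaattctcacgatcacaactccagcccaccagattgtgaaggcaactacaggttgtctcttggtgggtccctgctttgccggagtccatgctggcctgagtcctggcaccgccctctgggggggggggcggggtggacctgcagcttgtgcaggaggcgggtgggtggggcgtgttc

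The letters did not divide along the pairs. Ucp3 held AGGTCA at 2 places, starting 149 and 44 bases before the start, and Acadm at 1, starting 249 bases before it, on the opposite strand. Acadl and Hadh held it at 0 places, and 14% of the 32851 windows of this length in the table held it. The direct repeat of this core with 1 base between the copies, the form that PPAR receptors bind, was found in 0 of the 8 windows of the 6 genes that had one and in 0.0335% of all windows. Acadl and Ucp3 also differed in base composition, with 25 CG dinucleotides and 68% G and C before Acadl against 3 and 54.8% before Ucp3. Acadm had 12 and 64%, Hadh 8 and 59.6%, and the median window 6 and 52.4%. RefSeq windows were matched by gene ID for 6 of the 7 genes, all but Cpt1b. An absent match says only that these letters are not in this window.

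Outside the 7 genes, the patterns of Acadl and Ucp3 were most like that of the slow myosin. Those of Cpt1b and Acadm were most like that of myoglobin, and that of Hadh was most like that of the carbonic anhydrase Car3. The comparison left out the 7 genes themselves. For Ucp3 the r of 0.988 with Acadl, and for Acadm the r of 0.952 with Hadh, were higher than with any of these other genes. For Acadl, Hadh and Cpt1b the most like of these other genes had a higher r than any of the 7. By r over the 6 arrays among the 138 remaining named genes, the gene most like Acadl was Myh7, the myosin heavy chain of slow fibres, with r = 0.991 and a rho of 1.000. Next came Dgat1, an enzyme of triglyceride synthesis, with 0.946, and Pdha1, a pyruvate dehydrogenase subunit, with 0.943. Myh7 was also the most like Ucp3, with r = 0.964 and a rho of 1.000, before the lactate dehydrogenase subunit Ldha (0.950) and the transferrin receptor Tfrc (0.948). These are descriptions, picked as the highest of many values.

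For Cpt1b the most like gene was myoglobin, Mb, the oxygen store of muscle, with r = 0.929, then the cytochrome c oxidase subunits Cox5b (0.882) and Cox8a (0.865). The rho was 0.829, 0.829 and 0.714 in the same order. For Acadm it was also Mb, with 0.939, then Cox4i1 (0.926) and the malate dehydrogenase Mdh2 (0.925). The rho of Acadm was 0.829 with Mb but only 0.429 with Cox4i1 and 0.486 with Mdh2, so the order of arrays was much less alike than r alone shows. Hadh was most like Car3, a carbonic anhydrase abundant in slow muscle, with r = 0.974 and a rho of 1.000. The glucose transporter Slc2a2 (0.929) and the glycolytic enzyme Aldoa (0.915) followed, both with a rho of 0.829.

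Myh7 was chosen here because it had the highest r with Acadl and Ucp3, so their narrow ratios to it restate that choice and are no further support for it. The ratio of Acadl to Myh7 intensity was 0.036, 0.033, 0.0309, 0.0316, 0.0319 and 0.0294, a 1.22-fold range (log2 SD 0.10) where Acadl itself ranged 2.96-fold. The ratio of Ucp3 to Myh7 ranged 1.32-fold (log2 SD 0.16), where Ucp3 ranged 2.17-fold. For Acadm the ratio ranged 1.65-fold and for Hadh 2.03-fold, both lowest in control 1. The ratio of Cpt1b to Myh7 ranged 2.15-fold, wider than the 1.46-fold of Cpt1b itself, with its lowest value in control 1 and its highest in control 5. Cpt1b thus had a narrower range than Myh7 over the arrays.

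**Figure D3:**
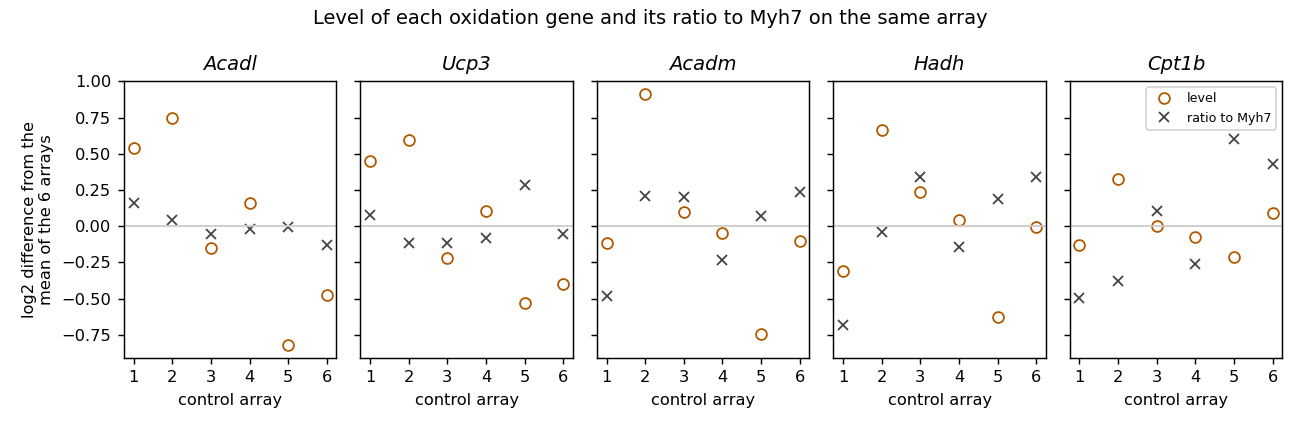
Level of each oxidation gene (open circles) and its ratio to Myh7 on the same array (crosses), both as log2 differences from their own mean over the 6 control arrays (vertical axis; array number on the horizontal axis). Myh7 was chosen for its high r with Acadl and Ucp3, whose crosses lie close to 0, with ranges of 1.22-fold and 1.32-fold, while those of Hadh and Cpt1b range 2.03-fold and 2.15-fold.

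The summed muscle fibre markers had the same highest and lowest arrays as the oxidation genes, while the single markers differed in their highest. Summed over the 7 of 12 listed muscle fibre markers on the array, intensity relative to the array median was 429, 544, 329, 376, 245 and 316 in controls 1 to 6. It was highest in control 2 and lowest in control 5, in the same order of arrays as Acadl and Ucp3. Myh7 and Mb made up most of the sum, from 62.3% in control 1 to 75.9% in control 2. Because Myh7 was picked above for its high r with Acadl and Ucp3, the shared order partly restates that choice and is no further support for it. All 7 markers were lowest in control 5, but 3 of them (Myh7, Mb and Ttn) were highest in control 2 and 4 (Myh1, Myh2, Myh4 and Des) in control 1. Their r ran from -0.242 for Myh1 to 0.929 for Mb with Cpt1b and from -0.190 for Myh1 to 0.872 for Mb with Hadh. With Acadm it ran from 0.018 for Myh1 to 0.939 for Mb. With Acadl it ran from 0.516 and with Ucp3 from 0.526, both for Myh1, to the values of Myh7 given above. The endothelial sum (5 of 7 markers) ran from 5.98 in control 1 to 13.1 in control 5, but its single markers differed. Pecam1 and Flt1 were highest in control 5, with levels of 2.94 and -0.04. Kdr was highest in control 2 (0.53) and Cdh5 in control 4 (1.90). Tek was lower in control 5 (-1.93) than in control 1 (-1.60). The fibroblast sum (2 of 7) ran from 3.78 in control 6 to 8.85 in control 1. The part of these cells in the levels was not tested, and in whole tissue fewer cells of a type and less RNA per cell cannot be told apart.

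No relation of an oxidation gene with a regulator passed the test, and the direction changed with a single array or with the processing. All 5 had a negative r with Ppara, with a median of -0.230, from -0.143 for Acadl (exact permutation p = 0.783, adjusted p = 0.895) to -0.400 for Cpt1b (exact p = 0.438, adjusted p = 0.694). The rho of Cpt1b with Ppara was -0.086 (exact p = 0.919, adjusted p = 0.979), and that of Acadl was -0.200 (exact p = 0.714, adjusted p = 0.894). Of the 5 pairs, 0 had an unadjusted p under 0.05 in the exact permutation test. Among all 151 other features, 55% had r above 0 with Ppara.

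The direction with Ppara rested on control 2. Without it, all 5 relations were positive, with r of 0.567 for Cpt1b, 0.536 for Acadl, 0.847 for Acadm, 0.850 for Hadh and 0.399 for Ucp3, and a median of 0.567. Without controls 2 and 4, the arrays farthest from the median of Ppara, r was 0.963 for Acadm, 0.934 for Hadh, 0.888 for Cpt1b, 0.441 for Acadl and 0.263 for Ucp3. In control 2 the oxidation genes were at their highest while Ppara was at its lowest, and that array also had the fewest probes above the noise bound.

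With Pparg all 5 had a negative r as well, with a median of -0.776, from -0.571 for Hadh (exact permutation p = 0.233, adjusted p = 0.521) to -0.799 for Ucp3 (exact p = 0.0583, adjusted p = 0.308). The rho was -0.486 for Hadh (exact p = 0.356, adjusted p = 0.695) and -0.771 for Ucp3 (exact p = 0.103, adjusted p = 0.412). Among all 151 other features, 42.4% had r above 0 with Pparg. All these values include controls 1 and 2, where Pparg was below the noise bound. Without both, over 4 arrays, r turned positive for Ucp3, at 0.280, and for Acadl, at 0.099. It was -0.442 for Acadm and -0.444 for Hadh, weaker than the -0.780 and -0.571 over all 6 arrays. For Cpt1b it was -0.889, more negative than its -0.725 over all 6. With values raised to the bound the median was 0.191, but this step places control 2 highest for Pparg by the bound of that array alone. Because Pparg was not reliably measured in controls 1 and 2, no direction with it can be given.

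The regulators had r = 0.629 with each other (exact permutation p = 0.183, adjusted p = 0.474), and their rho was 0.429 (exact p = 0.419, adjusted p = 0.741). Without control 2, r was -0.062. The intensity ratio of Ppara to Pparg ranged 4.06-fold, with its highest value, 9.08, in control 2, where Pparg was below the bound.

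**Figure D4:**
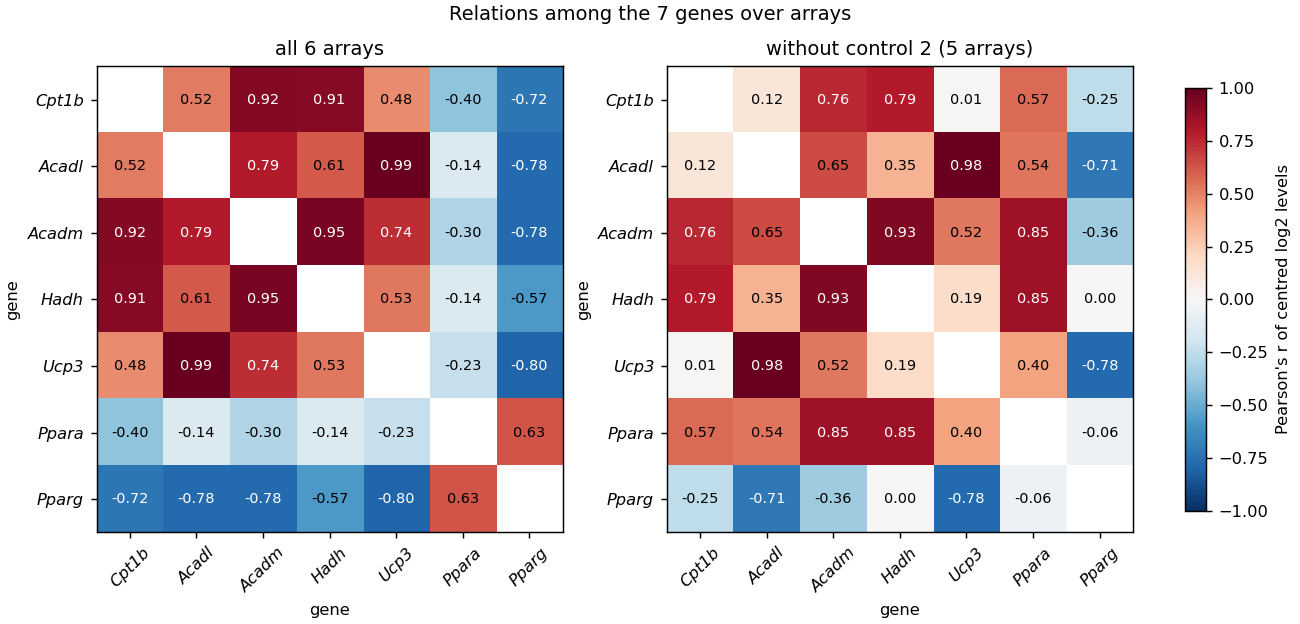
Pearson's r of centred log2 levels for each pair of the 7 genes (colour and number), over all 6 control arrays on the left and without control 2 on the right. All 10 pairs of oxidation genes are positive in both panels, the lowest without control 2 being Cpt1b and Ucp3 at 0.014. With the oxidation genes, Ppara turns from negative, at -0.143 to -0.400, to positive, at 0.399 to 0.850.

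Among the same 138 genes, those most like Ppara were the glucose transporter Slc2a3 (r = 0.971), the laminin chain Lama5 (0.833) and the hexokinase Hk1 (0.816), which were above the noise bound on 5, 5 and 4 arrays. Those most like Pparg were the ephrin Efnb1 (0.977), the angiopoietin Angpt2 (0.947) and the DNA polymerase subunit Pold1 (0.930), above the bound on 6, 6 and 5 arrays. Pparg itself was above the bound on 4 arrays. Its lowest levels, -2.63 and -3.46 in controls 1 and 2, have no reliable size, and these r include them.

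**Figure D5:**
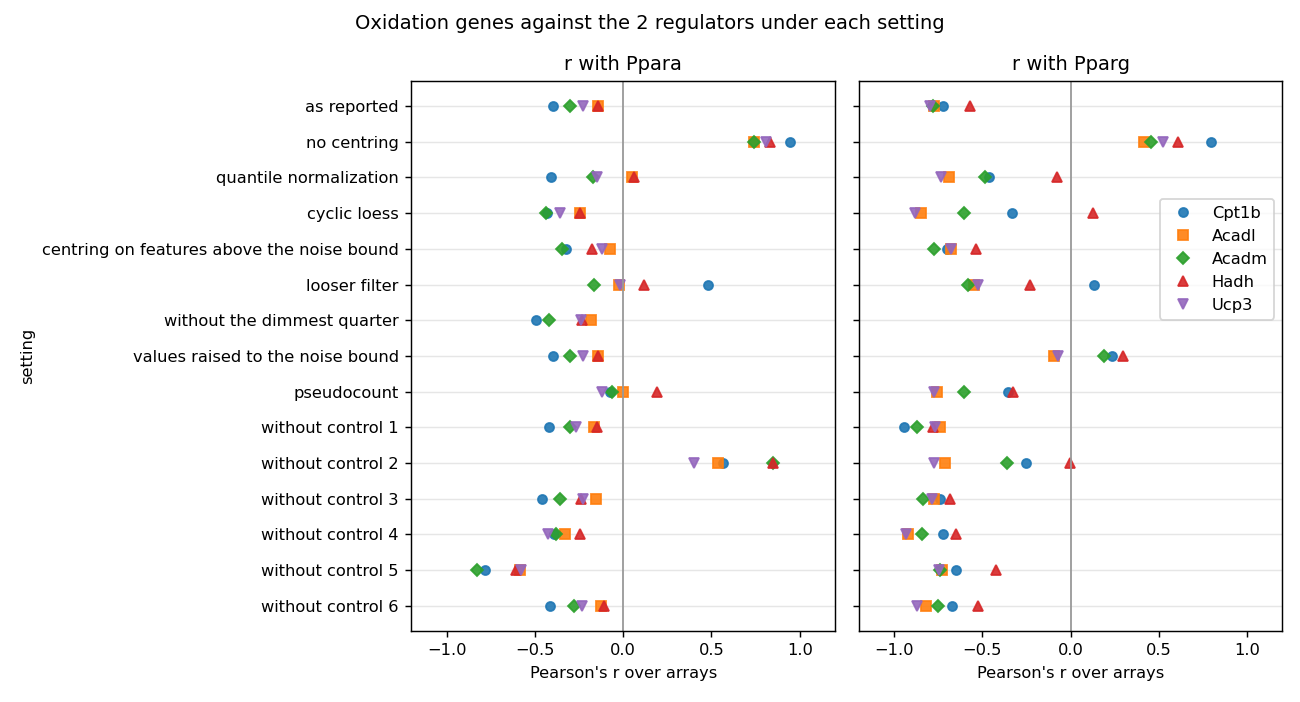
Pearson's r over arrays (horizontal axis) of each oxidation gene with Ppara (left) and with Pparg (right) under each way of processing or with each control left out (vertical axis). Relations with Ppara turn positive for all 5 genes without centring and without control 2, and those with Pparg turn positive for all 5 without centring and for 3 of 5 with values raised to the noise bound.

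Of 29 other listed genes of fatty acid handling, 6 were on the array and 5 were measured: the fatty acid carriers Cd36 and Fabp3, the adipocyte form Fabp4, the lipoprotein lipase Lpl and Dgat1. All 5 had r above 0 with each oxidation gene and below 0 with both regulators. Their median r was 0.92 with Acadl, 0.89 with Ucp3, 0.80 with Acadm, 0.77 with Hadh and 0.71 with Cpt1b. Over all 151 other features the medians were 0.34, 0.38, 0.13, 0.13 and 0.07, and between 53.6% and 60.9% had r above 0. With Ppara and Pparg the medians were -0.33 and -0.79, against 0.09 and -0.23 over all features. Pparg was below the noise bound in controls 1 and 2, so no direction with it can be given. The values with Ppara include control 2, on which the direction of the oxidation genes with Ppara rested, and they were not recomputed without it. Of all features, 55% had r above 0 with Ppara and 42.4% with Pparg.

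Single genes differed in which oxidation genes they were closer to. Cd36 and Fabp3, which take up and carry fatty acids, had r of 0.852 and 0.838 with Cpt1b and 0.406 and 0.383 with Acadl. Dgat1, Lpl and Fabp4 had 0.946, 0.915 and 0.933 with Acadl and 0.714, 0.536 and 0.632 with Cpt1b. None of these passed after adjustment in the exact permutation test, and an unadjusted p under 0.05 was found for 2 of 5 with Cpt1b, 3 of 5 with Acadl, 2 of 5 with Acadm, 0 of 5 with Hadh and 3 of 5 with Ucp3, all with r above 0. With r below 0 it was found for 2 of 5 with Pparg and 0 of 5 with Ppara. Over all pairs of features the share was 9.53% with r above 0 and 16.7% in either direction.

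Of 24 listed genes of the respiratory chain and citric acid cycle, 5 were measured: Cox4i1, Cox5b, Mdh2, Pdha1 and the mitochondrial transcription factor Tfam. Their median r was 0.79 with Cpt1b, 0.87 with Acadl, 0.89 with Acadm, 0.78 with Hadh and 0.82 with Ucp3, and 0 of 5 passed after adjustment with each. All 5 had r above 0 with Cpt1b, Acadm and Hadh, and 4 of 5 with Acadl and Ucp3. Tfam, at -0.472 with Acadl, was the exception, and it exceeded the noise bound on 2 arrays. With Ppara 1 of the 5 was above 0, with a median of -0.21, and with Pparg 1 of 5, with a median of -0.80. These values have the limits given above: those with Ppara include control 2, and Pparg was below the noise bound in controls 1 and 2. They thus give no direction with Pparg. Over all 151 other features, 53.6% to 60.9% had r above 0 with an oxidation gene, 55% with Ppara and 42.4% with Pparg. Listed PPAR partners and targets, 14 genes, had 0 members on the array by these symbols.

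Adipocyte markers gave little to set beside Pparg, a regulator known from fat cells. Of 8 listed markers Fabp4 and Lipe were on the array, and Lipe, the hormone-sensitive lipase, was at or below 0 on 2 arrays and above the noise bound on 2. Their summed intensity relative to the array median was 5.85, 11, 3.68, 5.95, 3.01 and 3.21 in controls 1 to 6, nearly all of it Fabp4. It was highest in control 2, where Pparg was below the bound, and Fabp4 had r = -0.790 with Pparg. Blood and immune and nerve markers had 0 members on the array, and the part of fat cells in these levels was not tested.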

How the data were processed

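Total RNA from soleus of control mice was measured in 6 samples on arrays of 223 probes. The deposited values are linear intensities, 1 per probe and array, some below 0. The way the authors scanned, corrected and scaled them is not given in the sources used here. Arrays do not count molecules, and their number limits the precision. The platform annotation gave 1 gene for 205 probes and none for 18, and all 7 members kept their symbols in the GRCm38.p6 gene table.

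Intensities above 0 on all 6 arrays were brought to log2, averaged over probes of a gene and centred on each array's median over 152 features. Pearson's r over arrays was tested for each pair of features over all 720 pairings, two-sided, with Benjamini-Hochberg adjustment over all pairs and a threshold of 0.05. Spread was tested in R 4.3.3 (limma 3.58.1, statmod 1.5.0) as a one-sided F test against a robust, intensity-trended prior with 6.12 degrees of freedom. Both procedures were tested on simulated data. The text gives every member, member pairs at the highest and lowest r of their family and others chosen after their values were seen, and for each member the 3 named genes with the highest r. The members and lists were chosen with earlier results of these data known. Alternatives were other scalings, filters, a pseudocount of 0.00335, Spearman's rho, other priors and each replicate left out. Promoter windows came from a RefSeq table. Probe sequences were not used, so cross-hybridisation was not checked.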

Additional observations from a re-analysis of the deposited data

Results flagged for a closer look

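Among 37 sets of 6 values (the members, their ratios, the measured fatty acid and mitochondrial genes, marker sums and array measures), 5 held a sample far from the others by Dixon's ratio of gap to range. Chance alone is expected to single out a share of about 0.05 of such sets. Control 4 stood apart for its median intensity of 0.0593 and its summed intensity of 125.2, and centring removed this brightness from the levels. In control 2 the summed adipocyte markers, mainly Fabp4, stood at 11 and Mb at a level of 7.71. Tfam was lowest in control 1, at -4.75, below the noise bound of that array. None of the 7 members held such a sample.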

How the results depend on the processing

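In all 15 alternatives to the reported processing 0 member pairs passed the adjusted threshold for r, and in all 16 for spread 0 members passed. Of the relations among the oxidation genes, all kept r above 0 in every alternative except under cyclic loess, with -0.043 for Acadl and Hadh and -0.056 for Hadh and Ucp3, and their median ran from 0.588 to 0.904 with each replicate left out. The relations with the regulators did not keep their direction, and the cause was not tested beyond the values given here.

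Without centring, where every gene carries the brightness of its array and the median r of all pairs was 0.717, r with Ppara was 0.946 for Cpt1b, 0.740 for Acadl, 0.743 for Acadm, 0.831 for Hadh and 0.808 for Ucp3, with a median of 0.808. With Pparg it was 0.793, 0.413, 0.456, 0.608 and 0.523 in the same order, with a median of 0.523. With values raised to the noise bound, r with Pparg was 0.234 for Cpt1b, 0.191 for Acadm and 0.297 for Hadh, with a median of 0.191, and Ppara and Pparg had -0.244. Under quantile normalization r with Ppara was 0.047 for Acadl and 0.062 for Hadh. Under cyclic loess Hadh had 0.129 with Pparg. With the looser filter, Cpt1b had 0.478 with Ppara and 0.133 with Pparg, and Hadh had 0.117 with Ppara. With the pseudocount Hadh had 0.194 with Ppara. Spearman's rho with Ppara was 0.086 for both Acadm and Hadh.

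With each replicate left out, the median r with Ppara ran from -0.610 to 0.567 and that with Pparg from -0.841 to -0.359. For Ppara the single ranges were -0.781 to 0.567 (Cpt1b), -0.583 to 0.536 (Acadl), -0.831 to 0.847 (Acadm), -0.610 to 0.850 (Hadh) and -0.582 to 0.399 (Ucp3), each highest without replicate 2 and lowest without replicate 5. Ppara with Pparg ran from -0.062 to 0.948. The SD of Pparg was 0.53 without replicate 2, 0.42 with values raised to the bound and 0.34 with the pseudocount, against 0.86. Without the dimmest features Pparg was left out. No paired analysis was possible because there is a single group.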

Other observations

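The ratio of Hadh to Acadm is unchanged by a single scaling factor per array. It took neighbouring values of 4.62 and 4.43 in controls 1 and 2 and lay between 5.62 and 5.83 in controls 3 to 6. Controls 1 and 2 were also the arrays with the fewest probes above the noise bound, 143 and 109, although both genes were at least 9.21 times the bound in each. The ratio of Acadl to Ucp3 did not set these arrays apart, with 2.21 and 2.31 in controls 1 and 2 and 2.17 in both control 3 and control 4. The labels give no batch, so these values could not be compared within one.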
